A study of Drosophila melanogaster with 12 samples.

Results

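The comparison described here is that of adult male Drosophila melanogaster fed a high-sugar diet for 4 weeks with males fed a control diet for the same 4 weeks. It rests on 6 of the 12 arrays of the series, 3 per diet, chosen by the sample titles alone, and is described across the 10418 genes that were named on the array and passed a filter on low signal. All flies were of the wild-type Canton-S strain, were 3 to 5 days old when feeding began and were kept in single-sex vials. The high-sugar and control flies of 4 weeks were 31 to 33 days old when killed. The other 6 arrays, 3 per diet, came from flies fed for 2 days and 5 to 7 days old when killed, and are used here to estimate the spread and as an earlier time point. Whole flies were homogenised and total RNA was hybridised to Affymetrix arrays, on which short probes report the amount of each transcript as a fluorescence intensity. The sugar content of each diet is not given in the labels, and neither is the number of flies per homogenate. The labels call the 3 arrays of a group biological replicates without saying whether they came from separate vials, so that the p-values measure the spread between these samples.

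Dietary sugar is taken up in the gut after disaccharides and starch have been cleaved by maltases and amylases, circulates in the haemolymph as glucose and trehalose, and is stored as glycogen and, after conversion to fatty acids, as triglyceride in the fat body, the insect counterpart of liver and adipose tissue. Transcriptional control of this response is known to run through the sugar-sensing pair Mondo and Mlx (bigmax), their target sugarbabe (sug), and the activin-like ligand dawdle (daw), which represses digestive enzyme genes. Long feeding on sugar is used in flies as a model of diet-induced obesity and insulin resistance.

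The labelled sex was checked against its markers. All 26 accessory gland genes and all 35 testis and sperm genes that the array named passed the signal filter, whereas 5 of the 15 named yolk and eggshell genes did, and none of these 5 passed the test between the diets (median log2 fold change -0.51). Array medians lay between 87.0 and 93.4 intensity units over the 12 arrays. In a principal component analysis of the 6 arrays of 4 weeks, the first component held 41.35% of the variance and separated the diets, with high-sugar arrays 1 to 3 at 11.15, 15.31 and 16.53 and control arrays 1 to 3 at -10.33, -7.089 and -25.57. Control array 3 lay farthest out on this component. On the second, which held 23.29%, control array 2 stood apart at -20.26, with the other arrays between -7.713 and 15.08. The median over genes of the standard deviation among the arrays of a group, on the log2 scale, was 0.123 in high-sugar flies and 0.165 in control flies.

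After 4 weeks, the high-sugar flies had more transcript of the sugar-responsive regulators sug, daw and cabut (cbt), of the TORC1 inhibitor Iml1 and of a fatty acid synthase, FASN2. They had less transcript of proteases, lipases and a maltase of the gut, of an acyl-CoA binding protein and of another fatty acid synthase, FASN3. Transcripts of 3 of 16 genes of purine synthesis and breakdown and 3 of 10 genes of the folate cycle and glycine cleavage were also lower. The calls of sug, FASN2, the maltase and some of these purine and folate genes ended when a single array was left out. Of the 10418 genes tested with limma (linear models with moderated variances, Benjamini-Hochberg adjusted p under 0.05), 201 passed, which is 1.93% of all genes. The flies on high sugar were higher for 84 of them, 0.806% of all genes, and lower for 117, 1.12%. A total of 2068 genes had an unadjusted p under 0.05.

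The median fall was larger than the median rise. Among the 84 genes that rose, the median log2 fold change was 0.69, 52 changed by at least 1.5-fold, 10 by at least 2-fold and 2 by at least 4-fold. Among the 117 that fell, the median was -0.82, and 88, 44 and 6 genes passed these fold limits. The median over all genes tested was 0.011, 52.1% of them were positive, and the median standard error of a gene's log2 fold change was 0.131. In all 201 genes the 3 high-sugar values and the 3 control values did not overlap, which was also so for 2425 of all genes tested (23.3%), 13.5% in the higher and 9.79% in the lower direction. Since whole flies were homogenised, fewer cells of a type and less RNA per cell cannot be told apart in any of these values. The number of calls depended on single arrays: it was 88 without control array 3, 82 without high-sugar array 2 and 96 without high-sugar array 3. The count of higher genes in these refits was 142 without control array 2, 28 without control array 3, and 38, 30 and 37 without high-sugar array 1, 2 and 3. The count of lower genes was 60 without control array 3, 52 without high-sugar array 2 and 59 without high-sugar array 3. How many genes these counts share with those of the full fit is not given.

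**Figure D1:**
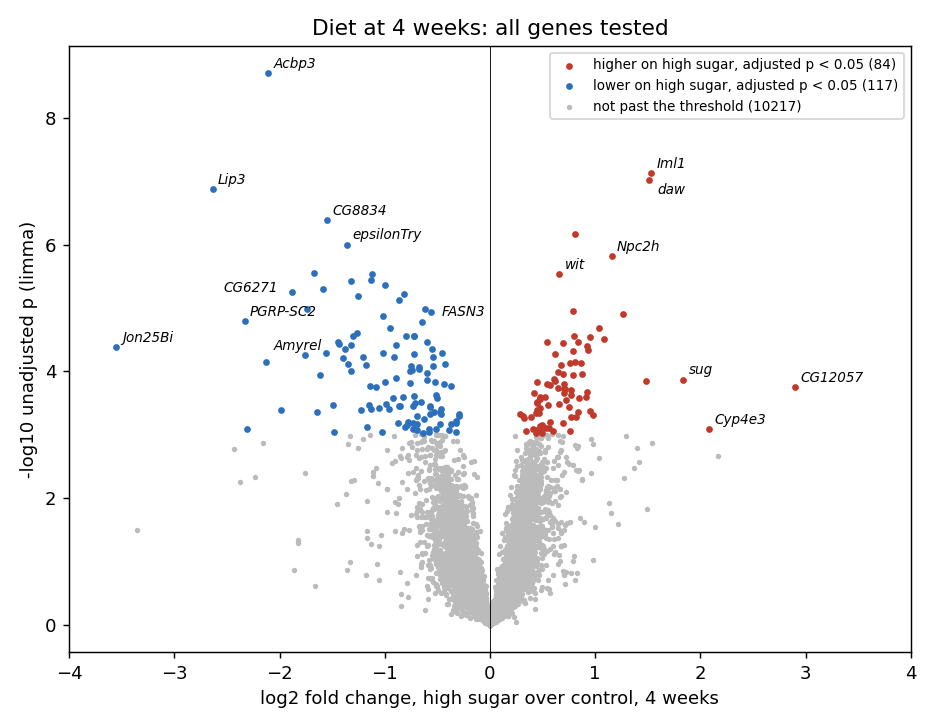
Log2 fold change, high sugar over control at 4 weeks (horizontal axis), against -log10 of the unadjusted limma p (vertical axis) for the 10418 genes tested. Red points are the 84 genes higher and blue points the 117 genes lower on high sugar at an adjusted p under 0.05, and the lower genes reach farther from 0, with Jon25Bi at -3.55.

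Values in brackets after a gene are its log2 fold change ± SE. The counts given for each list below stand against 0.806% of all genes tested that passed as higher and 1.12% as lower. Of 5 sugar-responsive regulators tested, 3 rose and none fell, and their median log2 fold change was 0.62. The zinc finger factor sug (Entrez gene 36424) had intensities of 1146, 1049 and 888 in high-sugar flies, against 202, 488 and 237 in control flies. The groups did not overlap, although control array 2 stood above the other controls. The change was 3.58-fold, a log2 fold change of 1.84 ± 0.34 (SE; adjusted p = 0.0166). The activin-like ligand daw (Entrez gene 33474) had 506, 667 and 552 in high-sugar flies, against 196, 226 and 183 in control flies, which gave a log2 fold change of 1.51 ± 0.14 (SE; adjusted p = 0.000331). Every high-sugar array was more than 2 times as bright for daw as the brightest control array. The transcription factor cbt, a target of Mondo and Mlx, had 4208, 3421 and 3583 in high-sugar flies, against 2449, 2561 and 2279.6 in control flies. For cbt the log2 fold change was 0.62 ± 0.10 (SE; adjusted p = 0.00994). The sensor genes themselves did not pass, with log2 fold changes of -0.02 ± 0.09 for Mondo and 0.17 ± 0.13 for bigmax. Leaving out 1 array at a time ended the calls of sug without high-sugar array 1 or 2 or control array 3 (adjusted p up to 0.0731).

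In the activin and BMP group, 2 of 15 genes tested rose, daw and the type II receptor wishful thinking (wit), and none fell. The values of wit were 343, 369 and 344 in high-sugar flies, against 223, 215 and 230.0 in control flies. This difference in wit came to 0.66 ± 0.08 on the log2 scale (SE; adjusted p = 0.00282). These 3 high-sugar arrays lay closely together and well above the controls. The group's median was 0.15. Among 20 genes of TORC1 and nutrient sensing the only call was Iml1 (Entrez gene 38176), a subunit of the GATOR1 complex, which restrains the growth kinase TORC1 when amino acids are short. Iml1 had 894, 733 and 871 in high-sugar flies, against 288, 229 and 359.9 in control flies, a log2 fold change of 1.53 ± 0.14 (SE; adjusted p = 0.000331), a 2.89-fold rise with no overlap, against a group median of 0.068. The calls of daw, cbt, wit and Iml1 held under each of the 25 alternative settings refitted for single genes.

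None of the 12 genes of insulin and adipokinetic hormone (AKH) signalling passed, at a group median of 0.20. The log2 fold changes were 0.16 ± 0.18 for the insulin-like peptide gene Ilp2, -0.25 ± 0.22 for Ilp5, -0.06 ± 0.21 for the insulin receptor, 0.29 ± 0.19 for the transcription factor foxo and -0.17 ± 0.16 for the hormone AKH itself. The AKH receptor gene AkhR, singled out after its values were seen, had intensities of 1223, 1045 and 952 in high-sugar flies, against 322, 769 and 336 in control flies. These did not overlap, but the 2.44-fold difference, a log2 fold change of 1.29 ± 0.31, did not pass at an adjusted p of 0.0506. AkhR passed under 6 of 25 alternatives, among them the omission of control array 2 (log2 fold change 1.70, adjusted p = 0.00423), and its log2 fold change ran from 0.82 to 1.70 over them.

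**Figure D2:**
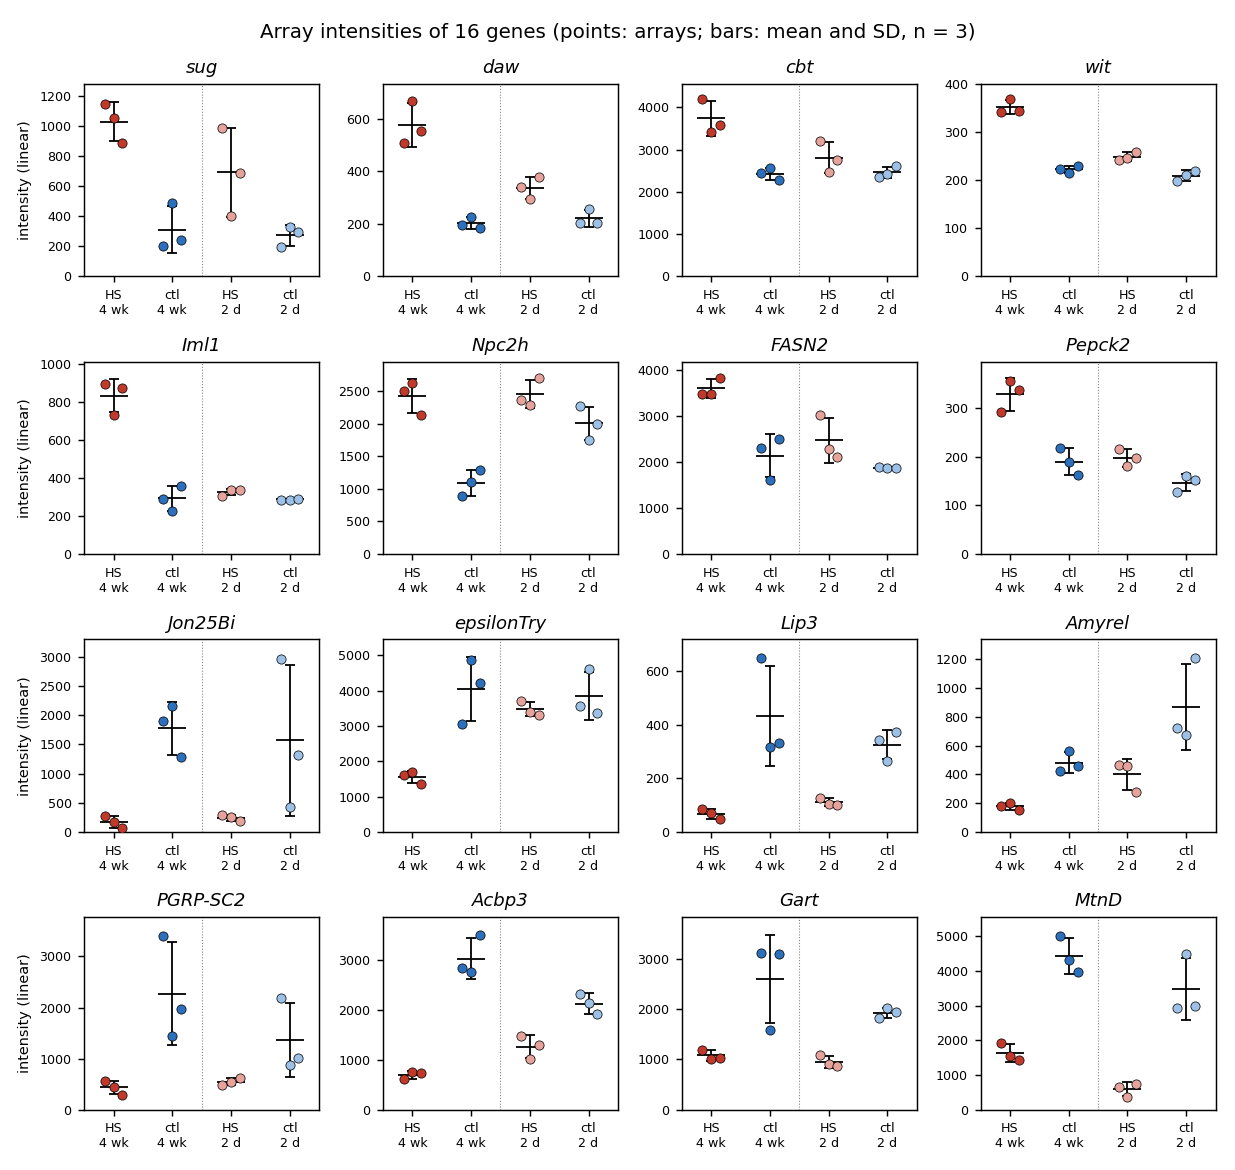
Intensities of 16 genes on a linear scale, each panel starting at 0, for high sugar and control at 4 weeks (left pair) and at 2 days (right pair). Points are arrays and bars are mean and SD (n = 3). The 3 high-sugar arrays of 4 weeks lie above the 3 control arrays for the upper 8 genes and below them for the lower 8.

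In the 4 families of digestive enzymes, the few genes that passed were lower. Log2 fold changes above 0 were held by 2 of 13 Jonah proteases and 1 of 13 trypsins. The same was so for 7 of 23 lipases and 2 of 12 genes of carbohydrate digestion. The 1 trypsin was zetaTry, at 1.13, which did not pass. Of 13 Jonah proteases, serine proteases of the gut, 2 fell and none rose, with a median of -0.25. Jon25Bi (Entrez gene 33708) had 275, 175 and 67.6 in high-sugar flies, against 1895, 2157 and 1279 in control flies, the largest fall among all genes called, 11.7-fold, or a log2 fold change of -3.55 ± 0.59 (SE; adjusted p = 0.00932). Its values varied 4-fold among the high-sugar arrays but stayed far under the lowest control. Jon99Ci had 3050.0, 1305 and 462 in high-sugar flies, against 6013, 7781 and 4763 in control flies, a log2 fold change of -2.31 ± 0.53 (SE; adjusted p = 0.0465). Of 13 trypsins 2 fell, with a median of -0.44. The values of epsilonTry were 1622, 1688 and 1370.4 in high-sugar flies, against 3059, 4868 and 4215 in control flies, a log2 fold change of -1.35 ± 0.16 (SE; adjusted p = 0.00149), and kappaTry had 662, 779 and 764 in high-sugar flies, against 1243, 1801 and 1445 in control flies. For kappaTry the log2 fold change was -1.01 ± 0.17 (SE; adjusted p = 0.00994).

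Among 23 lipases 3 fell, with a median of -0.15. Lip3 (Entrez gene 41643), a lipase known to rise on starvation, had 83.9, 69.9 and 49.0 in high-sugar flies, against 649, 319 and 333 in control flies, a fall of 6.21-fold, a log2 fold change of -2.63 ± 0.26 (SE; adjusted p = 0.000349). Control array 1 was about 2 times the other controls, and each control array was more than 3 times the brightest high-sugar array. CG6271 had 67.1, 50.9 and 36.1 in high-sugar flies, against 176, 246 and 143 in control flies, a log2 fold change of -1.88 ± 0.26 (SE; adjusted p = 0.00362), and CG8093 fell by 3.01-fold (log2 -1.59 ± 0.21, adjusted p = 0.00354). A further probe set matching both CG6271 and CG6277 also fell, by 1.68 on the log2 scale, so that signal of near-identical copies may be shared.

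Of 12 genes of carbohydrate digestion, 2 fell and 8 were lower in every high-sugar array than in any control array, with a median of -0.28. Over all genes tested, 1.12% passed as lower and 9.79% were lower without overlap. Such non-overlap was also seen for 8 of 13 Jonah proteases, 7 of 13 trypsins and 5 of 23 lipases. Amyrel, an amylase-related gene, had 180.1, 202 and 151 in high-sugar flies, against 426, 563 and 455 in control flies. This difference in Amyrel came to -1.44 ± 0.24 on the log2 scale (SE; adjusted p = 0.00905). The maltase Mal-A4 had 2542, 2753 and 2861 in high-sugar flies, against 5374, 5683 and 5105 in control flies, a log2 fold change of -0.99 ± 0.20 (SE; adjusted p = 0.0277). The probe set shared by the amylase genes Amy-p and Amy-d was also lower, at a log2 fold change of -0.31. The glucosidase tobi, a known target of insulin and AKH, had a log2 fold change of -0.24 ± 0.06 (adjusted p = 0.0721) and did not pass. Of 14 midgut markers, 1 passed: Peritrophin-15a, a chitin-binding protein of the membrane that lines the gut, had 555, 759 and 541 in high-sugar flies, against 1213, 2423 and 1272 in control flies. For Peritrophin-15a the log2 fold change was -1.35 ± 0.24 (SE; adjusted p = 0.0121).

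The median of the list of midgut markers lay on the same side. As drawn up, the list itself includes digestive enzyme genes, such as the trypsins alphaTry and betaTry, so it is not a separate reading of gut content. Their median log2 fold change was -0.27, 11 of 14 were negative, and their summed intensity was 38712 to 42521 in high-sugar flies, against 44696 to 48743 in control flies, with no marker at the lower limit of the measurement in all 6 arrays. The part of gut content in the falls of the digestive genes was not tested. With 1 array left out, calls were lost for Jon99Ci without high-sugar array 2 or 3 or control array 1, 2 or 3 or 5 of the 2-day arrays (adjusted p up to 0.126), Mal-A4 without any 1 of the 6 arrays (up to 0.0934) and Peritrophin-15a without high-sugar array 3 (up to 0.0558).

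Lipid genes moved in both directions. Of 23 genes of fat synthesis and lipid droplets, 2 rose and 1 fell, with a median of 0.039. The fatty acid synthase FASN2 had 3469, 3478 and 3826 in high-sugar flies, against 2296, 1608 and 2493 in control flies. This difference in FASN2 came to 0.78 ± 0.15 on the log2 scale (SE; adjusted p = 0.0227). Lsd-2, the perilipin that coats lipid droplets, rose by a smaller step, with 5216, 4883 and 4777 in high-sugar flies, against 3739.8, 4401 and 3742 in control flies, a log2 fold change of 0.33 ± 0.07 (SE; adjusted p = 0.0357). A second synthase, FASN3, fell, with 3423, 2902 and 2929.9 in high-sugar flies, against 4138, 4819.8 and 4704 in control flies. For FASN3 the log2 fold change was -0.56 ± 0.08 (SE; adjusted p = 0.00527). The main fat body synthase FASN1 had a log2 fold change of 0.06 ± 0.04, acetyl-CoA carboxylase (ACC) one of -0.08 ± 0.07 and the triglyceride lipase brummer (bmm) one of -0.25 ± 0.12, none past the threshold. The array-by-array omissions ended the calls of FASN2 without high-sugar array 1, 2 or 3 (adjusted p up to 0.0939) and Lsd-2 without high-sugar array 1, 2 or 3 or control array 1 or 3 or 2 of the 2-day arrays (up to 0.132).

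Among the genes that passed, the smallest p belonged to Acbp3 (Entrez gene 38783), one of the small proteins that bind acyl-CoA esters. It had 613, 765 and 738 in high-sugar flies, against 2847, 2759 and 3504 in control flies, a fall of 4.30-fold, a log2 fold change of -2.10 ± 0.14 (SE; adjusted p = 2.08e-05), and both groups were tight. Acbp5 also fell, by less (-0.42 ± 0.07, adjusted p = 0.0121), so that 2 of 5 genes of this family were lower, with a median of -0.43. That median was -0.18 without control array 3 and -0.14 without high-sugar array 1. Omission of single arrays took away the calls of Acbp5 without control array 3 (adjusted p up to 0.0513).

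Of 8 Niemann-Pick genes, whose products bind and move sterols, 1 rose and 1 fell, with a median of 0.05. Npc2h had 2509.5, 2631 and 2127 in high-sugar flies, against 890.2, 1102 and 1289.5 in control flies. This difference in Npc2h came to 1.16 ± 0.14 on the log2 scale (SE; adjusted p = 0.00201). Npc2f fell, with 646, 576 and 521 in high-sugar flies, against 989, 1939.6 and 1165 in control flies, a log2 fold change of -1.18 ± 0.21 (SE; adjusted p = 0.0122). Of 19 genes listed under fatty acid beta-oxidation 2 fell, and neither is shown here to be an enzyme of that pathway. CG9547, of the acyl-CoA dehydrogenase family, had 590.1, 526 and 497 in high-sugar flies, against 1222, 1074 and 928 in control flies (-0.99 ± 0.13, adjusted p = 0.00326). SCOT, which activates ketone bodies and is also in the list of amino acid and ketone breakdown, fell by less (-0.44 ± 0.08, adjusted p = 0.0175). The median of that list was 0.005. Calls did not survive every single-array omission for Npc2f without high-sugar array 2 or 3 (adjusted p up to 0.0565) and SCOT without high-sugar array 2 or 3 or control array 3 (up to 0.0839).

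In the lists of nucleotide and amino acid metabolism, each gene that passed was lower. The purine list had 3 falls among 16 genes, at a median of -0.16. Gart, an enzyme with several steps of purine synthesis, had 1196, 1009 and 1033 in high-sugar flies, against 3119, 1583 and 3089.9 in control flies. For Gart the log2 fold change was -1.20 ± 0.21 (SE; adjusted p = 0.0104). Prat2, which catalyses the first committed step, had 3835, 3627 and 3713 in high-sugar flies, against 6043, 5287 and 4938 in control flies. This difference in Prat2 came to -0.54 ± 0.09 on the log2 scale (SE; adjusted p = 0.0104). Rosy (ry), xanthine dehydrogenase, which forms urate at the end of purine breakdown, had 299, 302 and 285 in high-sugar flies, against 518, 449 and 425 in control flies, a log2 fold change of -0.65 ± 0.10 (SE; adjusted p = 0.00647). Control array 2 was the lowest control for Gart and still above every high-sugar array.

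The folate cycle and glycine cleavage list, which supplies carbon units to purine synthesis, had 3 falls among 10 genes and a median of -0.13. The glycine decarboxylase gene CG3999 had 153, 141 and 163 in high-sugar flies, against 815, 242 and 401 in control flies. For CG3999 the log2 fold change was -1.49 ± 0.31 (SE; adjusted p = 0.0279). The folate enzyme pugilist (pug) had 4231, 3858 and 3888 in high-sugar flies, against 6593, 5636 and 6194 in control flies. This difference in pug came to -0.62 ± 0.09 on the log2 scale (SE; adjusted p = 0.00518). Serine hydroxymethyltransferase (Shmt) fell by less (-0.37 ± 0.08, adjusted p = 0.0418). Of 15 genes of the methionine cycle and transsulfuration 2 fell, at a median of -0.30: Sardh, sarcosine dehydrogenase, with 93.8, 109 and 83.7 in high-sugar flies, against 252, 137 and 280.0 in control flies (-1.17 ± 0.27, adjusted p = 0.0444), and Cth, cystathionine gamma-lyase (-0.51 ± 0.10, adjusted p = 0.0229).

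Of 21 genes of amino acid and ketone breakdown 3 fell, at a median of -0.18. Ornithine aminotransferase (Oat) had 627, 533 and 477 in high-sugar flies, against 1366, 796 and 873 in control flies, a log2 fold change of -0.86 ± 0.18 (SE; adjusted p = 0.0282). The mitochondrial aspartate aminotransferase Got2 changed by the least of all genes that fell (-0.29 ± 0.06, adjusted p = 0.0322), and SCOT was the other. Ornithine decarboxylase (Odc1), the first enzyme of polyamine synthesis, which shares its substrate with Oat and was not in these lists, rose, with 715, 967 and 944 in high-sugar flies, against 367, 369 and 553 in control flies. For Odc1 the log2 fold change was 1.04 ± 0.16 (SE; adjusted p = 0.00753). After omission of 1 array, the threshold was no longer met by Gart without high-sugar array 2 or control array 3 (adjusted p up to 0.0522), Prat2 without high-sugar array 2 (up to 0.0505), CG3999 without high-sugar array 1, 2 or 3 or control array 3 (up to 0.109), Shmt without high-sugar array 1, 2 or 3 or control array 1 or 3 or 2 of the 2-day arrays (up to 0.142), Sardh without high-sugar array 1, 2 or 3 or control array 1 or 3 or 3 of the 2-day arrays (up to 0.164), Cth without high-sugar array 2 or 3 or control array 1 (up to 0.108), Oat without high-sugar array 2 or 3 or control array 3 (up to 0.117) and Got2 without high-sugar array 2 or 3 or control array 1 or 3 (up to 0.137).

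In central carbon metabolism few genes passed. None of 15 glycolytic genes (median -0.018) or 5 genes of the pentose phosphate pathway (-0.112) passed. Neither did any of 8 genes of the hexosamine pathway (0.018) or 41 subunits of oxidative phosphorylation (-0.029). Of 15 genes listed under the tricarboxylic acid cycle 1 fell, CG1544 (-0.74 ± 0.13, adjusted p = 0.0136). In that list 9 genes were positive and the median was 0.021. Whether CG1544 encodes an enzyme of the cycle itself is not shown here. Under quantile normalization the glycolysis median was 0.028 and that of the tricarboxylic acid cycle 0.080. The list of gluconeogenesis with trehalose, glycogen and polyol enzymes had 1 rise and 1 fall among 14 genes, at a median of -0.14. Pepck2, a phosphoenolpyruvate carboxykinase, had 291, 356 and 336 in high-sugar flies, against 217, 189.7 and 162 in control flies, a log2 fold change of 0.79 ± 0.13 (SE; adjusted p = 0.0099), while its paralogue Pepck1 had a log2 fold change of 0.06 ± 0.06. Sorbitol dehydrogenase 1 (Sodh1) had 4954, 5245 and 4401 in high-sugar flies, against 6148, 6445 and 7448 in control flies. This difference in Sodh1 came to -0.46 ± 0.08 on the log2 scale (SE; adjusted p = 0.00994). Of 17 sugar transporters SLC5A11, of the sodium-coupled family, rose (0.48 ± 0.10, adjusted p = 0.0246) and CG8249 fell (-0.83 ± 0.17, adjusted p = 0.0235), at a median of -0.18. Calls that ended when 1 array was omitted were those of CG1544 without high-sugar array 2 or control array 3 (adjusted p up to 0.0645), Pepck2 without high-sugar array 2 (up to 0.0505), SLC5A11 without high-sugar array 1 or 3 or control array 1 or 3 (up to 0.0977) and CG8249 without high-sugar array 2 or 3 or control array 1 (up to 0.0869).

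Of 18 genes of metallothioneins and zinc transport, 1 fell and 1 rose, at a median of -0.087. MtnD, a metallothionein, one of the small cysteine-rich proteins that hold copper and zinc, had 1929.6, 1556 and 1421 in high-sugar flies, against 5002, 4317 and 3979.9 in control flies, a log2 fold change of -1.44 ± 0.23 (SE; adjusted p = 0.00885). Its relative MtnB did not pass, at a log2 fold change of -0.88 ± 0.30. The zinc importer fear-of-intimacy (foi) rose, with 599, 558 and 608 in high-sugar flies, against 459.7, 425 and 410.3 in control flies. For foi the log2 fold change was 0.45 ± 0.09 (SE; adjusted p = 0.03). None of 11 genes of iron storage and transport passed (median -0.041).

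In immunity, 2 of 7 genes of peptidoglycan recognition and its control fell, at a median of -0.90, and both are known to damp the Imd response to bacteria. PGRP-SC2, an amidase that degrades peptidoglycan, had 564, 452 and 298 in high-sugar flies, against 3399, 1448 and 1976 in control flies. This difference in PGRP-SC2 came to -2.33 ± 0.35 on the log2 scale (SE; adjusted p = 0.00647). The product of pirk is an intracellular inhibitor of the Imd receptor, and the gene had 466, 464 and 492 in high-sugar flies, against 1967, 891 and 1759.7 in control flies, a log2 fold change of -1.62 ± 0.30 (SE; adjusted p = 0.0146). No antimicrobial peptide gene passed, although all 11 tested had a negative log2 fold change, where 52.1% of all genes tested were positive. The median of these peptide genes was -0.57. Their summed intensity was 20646, 18556 and 22111 in high-sugar flies, against 43887, 18342 and 38716 in control flies, so that control array 2 lay below every high-sugar array and the lower level rested on control arrays 1 and 3. The spread within groups was wide for these genes: AttD, singled out after its values were seen, had 91.7, 140.2 and 92.6 in high-sugar flies, against 3068, 54.0 and 344 in control flies (-1.86 ± 1.17, adjusted p = 0.389). None of 19 components of the Toll and Imd pathways passed (median 0.15). In the refits with 1 array fewer, calls ended for foi without high-sugar array 1, 2 or 3 or control array 2 or 3 (adjusted p up to 0.119) and pirk without high-sugar array 2 or control array 3 (up to 0.0711).

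Of 76 cytochrome P450 genes 1 rose and 3 fell, at a median of -0.019. Cyp4e3 had 2810.1, 2789.9 and 1871 in high-sugar flies, against 485, 1099 and 359 in control flies, a log2 fold change of 2.09 ± 0.48 (SE; adjusted p = 0.0465), the largest rise among genes measured on both sides. Cyp4s3 (-0.73 ± 0.15, adjusted p = 0.0233), Cyp309a1 (-0.70 ± 0.16, adjusted p = 0.0418) and Cyp9b2 (-0.47 ± 0.11, adjusted p = 0.0418) fell by smaller steps. Of 34 glutathione transferases (median -0.061) GstD5 fell, with 496, 347 and 621 in high-sugar flies, against 1153, 899.9 and 985 in control flies. For GstD5 the log2 fold change was -1.09 ± 0.21 (SE; adjusted p = 0.0185). None of 16 antioxidant enzymes (median 0.019), 17 heat shock proteins and chaperones (-0.01), 26 proteasome subunits (0.071) or 29 cytoplasmic ribosomal proteins (-0.022, but 0.018 under quantile normalization) passed. Of 22 subunits of the vacuolar proton ATPase Vha100-5 fell (-0.76 ± 0.14, adjusted p = 0.0136), at a median of -0.048. Leaving out 1 array at a time ended the calls of Cyp4e3 without high-sugar array 1, 2 or 3 or control array 1 or 3 or 1 of the 2-day arrays (adjusted p up to 0.17), Cyp4s3 without high-sugar array 1 or 3 or control array 2 (up to 0.104), Cyp309a1 without high-sugar array 2 or 3 or control array 1 or 2 or 4 of the 2-day arrays (up to 0.157), Cyp9b2 without high-sugar array 2 or 3 or control array 1, 2 or 3 or 2 of the 2-day arrays (up to 0.156), GstD5 without high-sugar array 2 or control array 1 or 3 (up to 0.0808) and Vha100-5 without high-sugar array 3 or control array 3 (up to 0.0655).

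Among neuropeptide, neuron and eye genes there was 1 rise in each list. Corazonin (Crz), a neuropeptide made in a small set of brain neurons, had 157, 156 and 191 in high-sugar flies, against 115, 97.4 and 84.6 in control flies, a log2 fold change of 0.77 ± 0.13 (SE; adjusted p = 0.012), and was the 1 call among 20 neuropeptide genes (median 0.25). Synapsin (Syn), which ties synaptic vesicles to the cytoskeleton, had 597, 549.8 and 545 in high-sugar flies, against 412, 413 and 318 in control flies. This difference in Syn came to 0.57 ± 0.13 on the log2 scale (SE; adjusted p = 0.0402). InaD (inaD), the scaffold of the phototransduction complex, had 279, 284 and 325 in high-sugar flies, against 218, 216 and 216 in control flies, a log2 fold change of 0.45 ± 0.09 (SE; adjusted p = 0.0265). CngB, which was in no list and by its name and family encodes a subunit of a cyclic nucleotide-gated channel, had 203, 220.0 and 186 in high-sugar flies, against 81.9, 75.8 and 61.7 in control flies. For CngB the log2 fold change was 1.48 ± 0.28 (SE; adjusted p = 0.017).

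Marker lists of these tissues lay on the same side of 0. Of 14 neuron markers only Syn passed, at a median of 0.29, and their summed intensity was 12012 to 12876 in high-sugar flies, against 9154 to 10389.9 in control flies. Of 14 photoreceptor markers only inaD passed, all 14 were positive, the median was 0.31, and the sum was 24848 to 26366 in high-sugar flies, against 22418 to 23052 in control flies. Of 21 muscle markers none passed, 20 were positive, the median was 0.17, and the sum was 54262 to 55264 in high-sugar flies, against 45866 to 51729 in control flies. The vesicular transporter gene prt, which is expressed in neurons and was in none of these lists, fell (-1.76 ± 0.30, adjusted p = 0.0102). In all 3 lists the summed levels of the diets did not overlap. For single genes tested this was so in the higher direction in 13.5%, which is not a share for sums over lists. Of all genes tested, 52.1% were positive. The part of tissue content in the rises of these genes was not tested. The photoreceptor median was 0.24 when all probe sets of a gene were averaged. With 1 array left out, calls were lost for Crz without high-sugar array 3 or control array 3 (adjusted p up to 0.0579), Syn without high-sugar array 1, 2 or 3 or control array 3 or 2 of the 2-day arrays (up to 0.13), inaD without high-sugar array 2 or 3 or control array 3 (up to 0.118) and CngB without high-sugar array 2 or control array 3 (up to 0.0808).

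In other tissues the markers showed few calls. None of 35 testis and sperm markers passed (median -0.17, with 3 positive) and their sums overlapped, at 77976 to 87951 in high-sugar flies, against 87459 to 95868 in control flies. None of 26 accessory gland markers (-0.05), 19 blood cell and melanization genes (0.11), 12 basement membrane genes (0.21) or 12 circadian clock genes (0.167) passed. Of 8 fat body markers (median -0.14) Lsp2, a larval serum storage protein gene that is also active in adults, fell, with 5565, 3618 and 3050.5 in high-sugar flies, against 6203, 12708 and 8186 in control flies, a log2 fold change of -1.13 ± 0.24 (SE; adjusted p = 0.0299), and the yolk protein gene Yp1 had -0.65 ± 0.26 without passing. Of 16 Malpighian tubule markers the alkaline phosphatase Alp4 rose (0.48 ± 0.10, adjusted p = 0.0294) and the aquaporin Prip fell (-0.52 ± 0.10, adjusted p = 0.017), at a median of 0.046. Of 19 cuticle proteins (median 0.125, but -0.197 with the dimmer 50% of probe sets left out) Cpr66D rose, with 472, 555 and 322 in high-sugar flies, against 221, 254 and 197 in control flies. This difference in Cpr66D came to 0.98 ± 0.21 on the log2 scale (SE; adjusted p = 0.0332). Of 33 odorant-binding proteins (median 0.059, but -0.02 without control array 1) Obp56a fell, with 530.3, 508 and 379.7 in high-sugar flies, against 987, 1439 and 1306 in control flies (-1.39 ± 0.24, adjusted p = 0.0108), and Obp18a rose (0.49 ± 0.12, adjusted p = 0.0488). The array-by-array omissions ended the calls of Lsp2 without high-sugar array 2 or 3 or control array 2 or 3 (adjusted p up to 0.121), Alp4 without high-sugar array 1, 2 or 3 or control array 1 or 3 (up to 0.12), Prip without high-sugar array 2 or control array 3 (up to 0.0884), Cpr66D without high-sugar array 1 or 2 or control array 1 or 3 (up to 0.142), Obp56a without control array 3 (up to 0.0511) and Obp18a without high-sugar array 1, 2 or 3 or control array 2 or 3 or 4 of the 2-day arrays (up to 0.172).

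**Figure D3:**
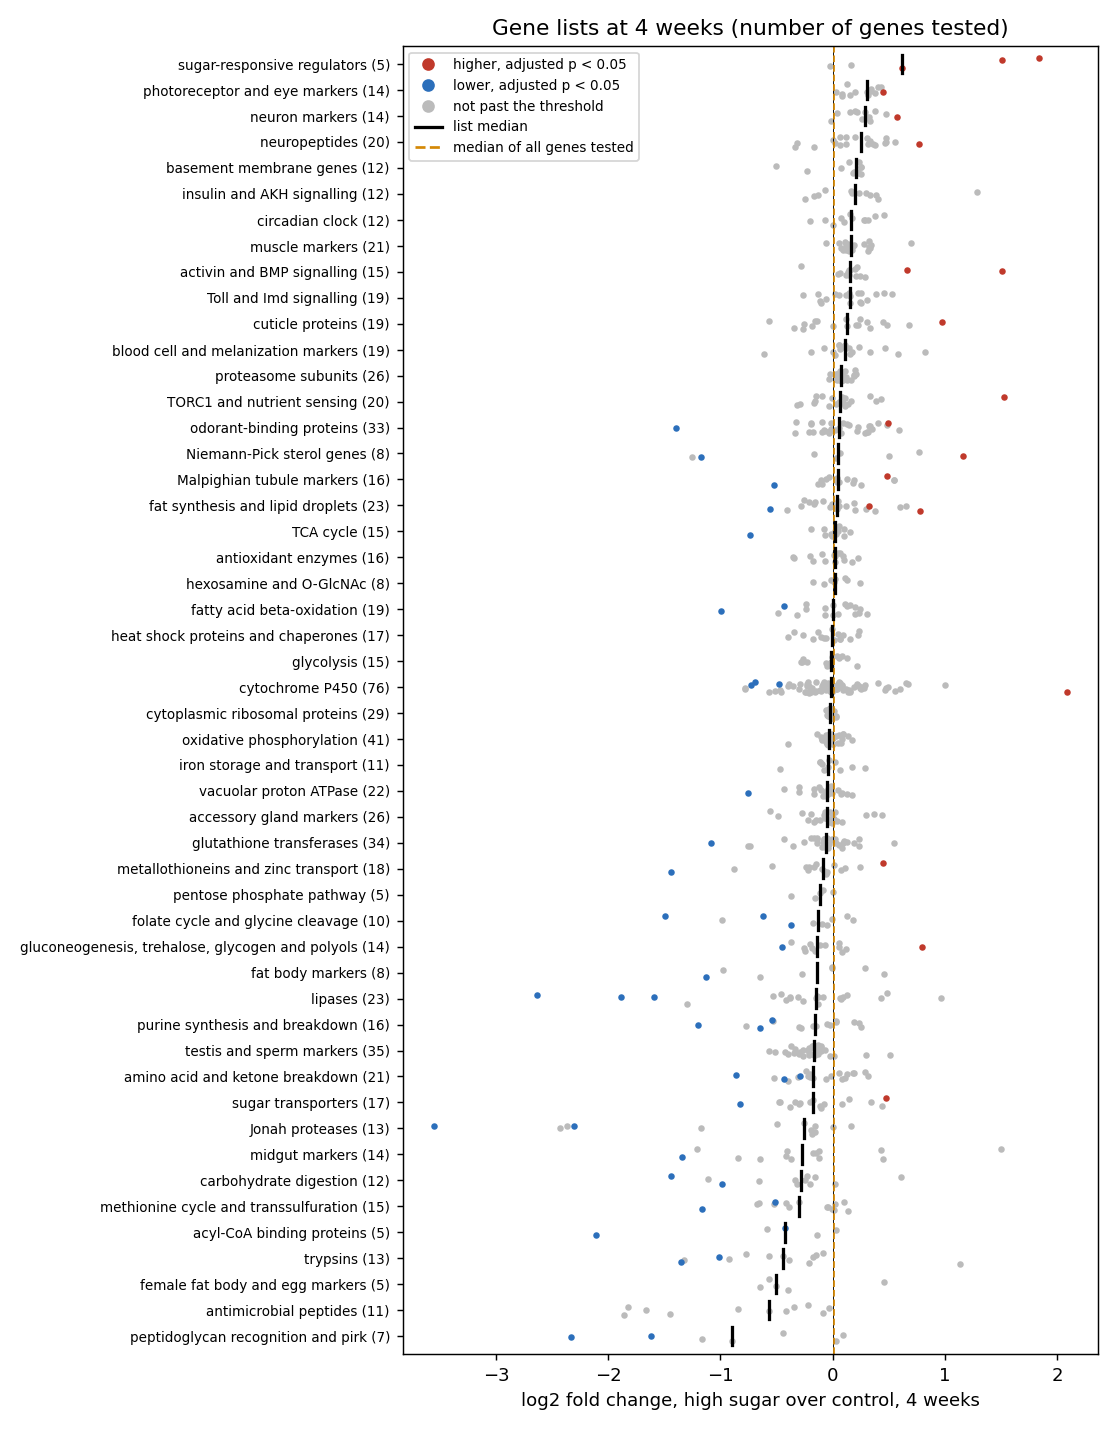
Log2 fold change, high sugar over control at 4 weeks, of each gene tested in 50 gene lists (horizontal axis), with lists ordered by their median from the highest at the top to the lowest. Red and blue points are genes higher and lower at an adjusted p under 0.05, grey points did not pass, black ticks are list medians and the dashed line is the median of all genes tested, 0.011. The sugar-responsive regulators have the highest median, 0.62, and the peptidoglycan recognition list the lowest, -0.90.

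Across the 50 lists, 31 held at least 1 gene that passed and 19 held none. Of the 877 genes tested that belong to a list, 58 passed (6.61%, against 1.93% of all genes), but the lists were drawn up with earlier results of these arrays known, so that this share is a description only. Of the 201 genes that passed, 143 belonged to no list.

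Among the largest rises outside the lists were CG13912, with 391, 447 and 458 in high-sugar flies, against 151, 229.8 and 166 in control flies, a log2 fold change of 1.27 ± 0.19 (SE; adjusted p = 0.00545), and Nep6, of the neprilysin family of metallopeptidases, with 2091, 2002 and 1836 in high-sugar flies, against 983, 969 and 1184 in control flies, a log2 fold change of 0.92 ± 0.15 (SE; adjusted p = 0.00917). CG13841 (0.96 ± 0.15, adjusted p = 0.00843), CG5707 (0.93 ± 0.16, adjusted p = 0.0096) and the phospholipase A2 gene GIIIspla2 (0.91 ± 0.18, adjusted p = 0.0235) rose by about 1.9-fold. The monocarboxylate transporter family gene karmoisin (kar) rose by 1.83-fold (0.87 ± 0.16, adjusted p = 0.0143). The protein kinase D gene PKD (0.85 ± 0.17, adjusted p = 0.0237), the deubiquitinase gene Usp16-45 (0.84 ± 0.18, adjusted p = 0.0313), CG18327 (0.95 ± 0.20, adjusted p = 0.0306), CG13607 (0.93 ± 0.18, adjusted p = 0.0211) and CG30281 (0.87 ± 0.15, adjusted p = 0.012) completed the 20 largest. CG7720 rose on its brighter probe set (1.09 ± 0.17, adjusted p = 0.00861), but a second probe set of the gene stood at 0.059. CG12057, singled out after its values were seen, had 171, 123 and 36.4 in high-sugar flies, against 7.06, 13.3 and 4.29 in control flies. For this gene 2 control values were under the lower limit set for the values, so that no fold is given and it was not ranked (adjusted p = 0.0187).

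Among the largest falls outside the lists, CG8834 had 1446, 1623 and 1906 in high-sugar flies, against 4808, 4651 and 4972 in control flies. For CG8834 the log2 fold change was -1.55 ± 0.17 (SE; adjusted p = 0.000858). CG17906 had 25.9, 28.8 and 21.9 in high-sugar flies, against 78.2, 97.3 and 70.0 in control flies. This difference in CG17906 came to -1.67 ± 0.21 on the log2 scale (SE; adjusted p = 0.00282). CG14500 had 181, 299.5 and 177 in high-sugar flies, against 532, 908 and 739 in control flies, a log2 fold change of -1.74 ± 0.25 (SE; adjusted p = 0.00518). In all 3 of these genes each control array was above 2 times the mean of the high-sugar arrays. The portabella gene prt, which encodes a vesicular transporter of the mushroom body, fell by 3.38-fold (-1.76 ± 0.30, adjusted p = 0.0102). CG31832 (-2.13 ± 0.37, adjusted p = 0.0119), CG15533 (-1.98 ± 0.42, adjusted p = 0.03), CG7381 (-1.64 ± 0.35, adjusted p = 0.0316), CG9672 (-1.56 ± 0.26, adjusted p = 0.00994) and CG30091 (-1.48 ± 0.35, adjusted p = 0.0486) fell by 2.8-fold to 4.4-fold. Omission of single arrays took away the calls of GIIIspla2 without high-sugar array 1 or 2 or control array 3 (adjusted p up to 0.0865), kar without high-sugar array 2 or 3 or control array 3 (up to 0.0695), PKD without high-sugar array 1, 2 or 3 or control array 1 or 3 (up to 0.0809), Usp16-45 without high-sugar array 1 or 2 or control array 1 or 3 (up to 0.126), CG18327 without high-sugar array 1, 2 or 3 or control array 1 or 3 (up to 0.126), CG13607 without high-sugar array 1 or 2 or control array 3 (up to 0.0846), CG30281 without control array 3 (up to 0.0546), CG12057 without high-sugar array 1 or 2 or control array 3 (up to 0.0921), CG31832 without control array 3 (up to 0.0588), CG15533 without high-sugar array 1, 2 or 3 or control array 2 or 3 (up to 0.112), CG7381 without high-sugar array 1 or 2 or control array 1, 2 or 3 (up to 0.0913) and CG30091 without any 1 of the 6 arrays or 4 of the 2-day arrays (up to 0.174).

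The same diets after 2 days of feeding gave 15 genes past the threshold, 0.144% of all genes, all of them lower on high sugar. The 8 genes that passed at both times were Prat2, Lip3, Got2, SCOT, CG34040, MtnD, CG9547 and Shmt. At 2 days Lip3 had 128, 103 and 101 in high-sugar flies, against 342, 265 and 373 in control flies, a log2 fold change of -1.55. MtnD had 665, 369 and 738 in high-sugar flies at 2 days, against 2922, 4497 and 2992 in control flies, a log2 fold change of -2.59. The fitted fall of Lip3 was thus larger and that of MtnD smaller at 4 weeks. The other 7 genes, which passed at 2 days alone, had log2 fold changes at 4 weeks of -0.26 for GstE6, -0.88 for MtnB, -0.65 for Art7, 0.12 for rtet, -0.15 for CG14292, -0.70 for CG3604 and -0.11 for CG31176.

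Of the genes that passed at 4 weeks, 73 of 84 higher genes and 109 of 117 lower genes had the same sign at 2 days, together 90.5%, against 61.1% of all genes tested. Their median log2 fold change at 2 days was 0.155 for the higher and -0.38 for the lower genes. The value at 4 weeks was the larger for all 84 and for 108 of 117, which the choice of genes by their 4-week values favours. Iml1 had 307, 335 and 334 at 2 days in high-sugar flies, against 284, 285 and 291 in control flies, so that the groups differed by a log2 fold change of 0.18 then and 1.53 at 4 weeks. Acbp3 had 1479, 1024 and 1294 in high-sugar flies at 2 days, against 2335, 2139 and 1927 in control flies, or -0.77 then and -2.10 at 4 weeks.

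The difference between the 2 diet effects was itself tested, and limma called no gene (0.00%), with 757 genes at an unadjusted p under 0.05, 117 of them among the 201 that passed at 4 weeks. The lowest adjusted p was 0.0962, for Iml1 and Acbp3, whose effects differed by 1.35 ± 0.20 and -1.34 ± 0.20 on the log2 scale (SE). No change was therefore shown to be particular to 4 weeks. Between 1 and 3 genes passed this test when control array 2 or 3 of 4 weeks, or array 2 of either diet of 2 days, was left out.

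**Figure D4:**
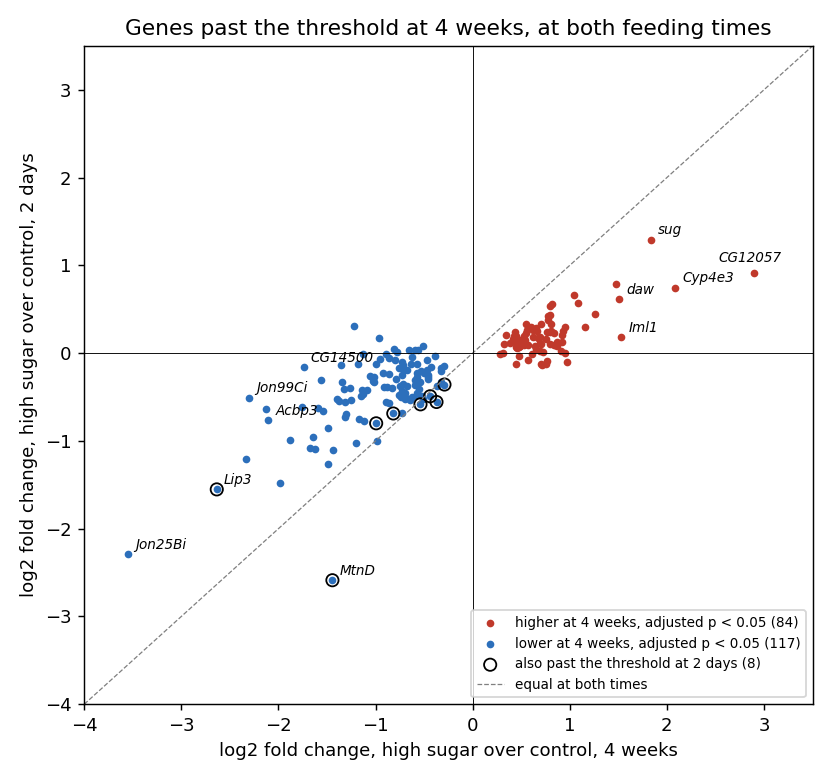
Log2 fold change, high sugar over control, at 4 weeks (horizontal axis) and at 2 days (vertical axis) for the 201 genes past the threshold at 4 weeks, red for higher and blue for lower. Open circles mark the 8 genes that also passed at 2 days. Most points lie on the same side of 0 at both times and closer to 0 at 2 days, while MtnD lies beyond the dashed line of equal change.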

How the data were processed

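RNA of whole adult male flies was measured on 12 Affymetrix arrays. The deposited values are intensities on a linear scale, which per the series text the authors derived from perfect match and mismatch probes and normalized between arrays in dChip. Other versions and the genome build are not given in the sources used here, so no coordinates are given. A floor was set at the pooled 20th percentile (intensity 11.78), and log2 values were taken. Probe sets in the lowest 30% by mean log2 value (below 4.30) were dropped. Probe sets with exactly 1 gene symbol were kept, the brightest per gene, which left 10418 genes. Symbols come from GEO's platform annotation.

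Group means of the 4 groups were estimated with limma 3.58.1 (R 4.3.3, eBayes with a trend) from all 12 arrays, for diet at 4 weeks, diet at 2 days and their difference. The procedure was tested on simulated data. Benjamini-Hochberg adjustment ran over all genes of a contrast, with a threshold of 0.05. Genes named are the 20 largest per direction with groups that did not overlap and at most 1 of the 6 arrays at the floor, up to 3 per list and direction by adjusted p, and fixed genes of sugar metabolism. The genes and lists were chosen with earlier results of these data known. Others are marked as chosen after their values were seen, or are the genes that passed at 2 days. Settings tried besides were centring, quantile normalization, other floors and filters, limma without a trend, robust or with array weights, a replicate block, the 6 arrays of 4 weeks alone, other probe set rules, a fold limit, and each array left out. Same-numbered arrays of the 2 diets had deviations that correlated at -0.1994, 0.1345 and 0.1436 at 4 weeks. Differently numbered arrays had correlations from -0.2811 to 0.1943. The labels do not say whether the numbers pair the arrays, and these values cannot settle it. A planned description of promoter motifs was not made. The number of arrays limits the precision.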

Additional observations from a re-analysis of the deposited data

Results flagged for a closer look

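Probe sets without a single gene symbol were not used in the gene comparison. When all 13138 probe sets past the signal filter were fitted together with limma, 21 such probe sets passed an adjusted p of 0.05 for diet at 4 weeks. Of 350 probe sets that matched several symbols, 3 were higher and 6 lower on high sugar. Among them were the probe set shared by CG6271 and CG6277, at a log2 fold change of -1.68 ± 0.27 (SE), that shared by the amylases Amy-p and Amy-d, at -0.31 ± 0.06, and that shared by inaF-B and inaF-D, at 0.64 ± 0.10. Of 1436 probe sets with no symbol in the annotation used, 4 were higher and 8 lower.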

How the results depend on the processing

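The number of genes past the threshold, 201 in all, was 119 with no filter on low signal, 101 with a replicate block, 127 with the 6 arrays of 4 weeks alone, and between 82 and 264 when each array was left out in turn. The 84 higher genes became 52 with a fold of at least 1.5, 39 with the replicate block, 38 with the 6 arrays alone, and 28 to 142 with an array left out. The 117 lower genes became 60 with no filter, 62 with the replicate block, and 52 to 137 with an array left out. The labels do not say whether the replicate numbers pair the arrays, so it is not known whether the fit with or without the block suits the design. Quantile normalization gave 265 calls and centring on array medians 243. For the difference between the diet effects, the count of 0 became 1 with no filter, in the higher direction, and 0 to 3 with an array left out, 0 to 3 of them higher and 0 to 1 lower. The cause of these shifts was not tested.

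Of the 81 genes named by rule that passed, 26 passed under each alternative refitted for single genes (25, or 24 for genes that the filter on the lowest 50% removes, the fold limit not among them), and 55 lost their call under at least 1: 50 without an array of 4 weeks, 40 with no filter, 31 with the replicate block and 29 with the 6 arrays alone. No gene that passed changed sign. Of genes that did not pass, AkhR gained a call under 6 alternatives and tobi under 1. Among genes that did not pass, the log2 fold change changed sign for Ilp5 (-0.4373 to 0.02 with an array left out, positive without high-sugar array 3), InR (-0.3082 to 0.062, positive without control array 1 or 3 or high-sugar array 2) and Mondo (-0.067 to 0.0336, positive without high-sugar array 2, and 0.0065 under quantile normalization). Of the list medians under the alternatives, 1228 moved by less than the spread between arrays and 22 by more. No detection calls were used here, so the signal filter stands in for signal over background, and folds of genes near the floor are understated.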

Other observations

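The following genes were picked out after their values were seen. Values in brackets are log2 fold changes ± SE. Lipid genes outside the lists were changed in both directions: CROT, a carnitine acyltransferase gene, rose (0.69 ± 0.11, adjusted p = 0.00889), as did the phosphatidylserine decarboxylase gene Pisd (0.83 ± 0.14, adjusted p = 0.00885) and the fatty acid elongase gene Elovl7 (0.55 ± 0.12, adjusted p = 0.0279), while FarO, a fatty acyl-CoA reductase gene, fell (-0.60 ± 0.11, adjusted p = 0.0141). Pisd had 1675, 1918 and 1741 in high-sugar flies, against 930.2, 896 and 1185 in control flies, with no overlap. Among transporters, the organic cation transporter gene Orct rose (0.57 ± 0.11, adjusted p = 0.0181), the multidrug resistance protein gene Mrp5 fell (-0.87 ± 0.12, adjusted p = 0.00418) and the monocarboxylate transporter gene Mct1 fell (-0.57 ± 0.12, adjusted p = 0.0324). Mrp5 had 258, 265 and 248 in high-sugar flies, against 429.7, 543 and 440.5 in control flies.

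Some of the genes that passed are next to each other among the genes tested, in the RefSeq gene order of release 6. Genes not tested were passed over, so that members of a run may have other genes between them. There were 5 such runs with 13 genes in all, 3 lower and 2 higher on high sugar. The longest held CG8997, CG7916, CG7953 and CG7968 on chromosome arm 2L, with log2 fold changes of -0.60, -0.72, -0.60 and -1.30. CG7968 had 595, 615 and 558 in high-sugar flies, against 1277, 1542 and 1564 in control flies. The runs CG12825 with CG12824 (-0.50 and -0.72) and CG34040 with CG4363 (-0.82 and -0.32) were also lower. Nepl15, a neprilysin-like gene, CG13841 and CG43091 (0.69, 0.96 and 0.66) and bab2 with CG13912 (0.49 and 1.27) were higher. Whether such runs are more frequent than gene order gives was not tested. Calls did not survive every single-array omission for Elovl7 without high-sugar array 1 or 3 or control array 1 or 3 (adjusted p up to 0.11), FarO without high-sugar array 3 or control array 3 (up to 0.0558), Orct without high-sugar array 2 or 3 or control array 3 (up to 0.0839), Mct1 without high-sugar array 1, 2 or 3 or control array 1 or 3 (up to 0.134), CG7953 without high-sugar array 1 or 2 or control array 3 (up to 0.07), CG12825 without high-sugar array 2 or 3 or control array 3 (up to 0.11), CG4363 without any 1 of the 6 arrays or 4 of the 2-day arrays (up to 0.155), Nepl15 without high-sugar array 3 or control array 3 (up to 0.0695), CG43091 without high-sugar array 2 or 3 or control array 1 or 3 (up to 0.117) and bab2 without high-sugar array 1, 2 or 3 or control array 2 or 3 or 2 of the 2-day arrays (up to 0.162).

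A further 10 probe sets were measured for 9 of the genes that passed, and 8 had the same direction as the one used. The exceptions were IP3K2, at 0.48 on the probe set used and -0.13 on the other, and wb, at -0.53 and 0.42. The count of 8 rests on sign alone. Among those 8, only the further probe sets of CG34040 and Tim17b2 had an unadjusted limma p under 0.05. CG42747 stood at -0.96 on the probe set used and -0.20 on the other, and CG7720 at 1.09 and 0.059.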
